A study of Mus musculus with 2 samples.

Results

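The heat shock genes described here are 10 mouse genes for cytosolic and mitochondrial chaperones and their partners, read in the livers of Yap+/+ and Yap+/- mice. They are Hspa1b, Hsph1, Hspb1, Bag3, Dnajb1, Hsp90aa1, Hsp90ab1, Hspa8, Hspd1 and Hspe1. Members were chosen by name, as every probe set (a group of short array probes summarised to 1 value) whose annotation gave exactly that symbol. This found 22 probe sets for 9 of the 10 genes, out of 18193 genes with at least 1 such probe set. No probe set carried Hsp90ab1, the constitutive cytosolic HSP90, as its only symbol, so that gene was not analysed here. A gene was taken as measured where its brightest probe set averaged 6 or more (log2) across the arrays, and this held for all 9 genes and for 9299 genes in all.

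The study compared young liver with and without the loss of 1 copy of Yap, whose product is a transcriptional co-activator restrained by Hippo signalling. The Yap+/+ group was 1 pool of livers from 5 wild-type mice, and the Yap+/- group was 1 pool from 5 heterozygous mice. All were untreated, were on a C57BL/6 background after 6 or more generations of breeding, and were taken at postnatal day 30. The labels give no sex, no time of sacrifice and no cell type to which the loss is restricted. Each pool went onto 1 array, so every value is a single measurement, no error of a difference between genotypes exists and no difference was tested. As a scale for array noise, the 2 brightest measured probe sets of a gene disagreed about the difference between genotypes with a robust SD of 0.17 log2 over 3406 genes. That figure does not cover the spread between mice or pools.

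Heat shock proteins bind unfolded chains and help them fold, be held soluble or be degraded. In the cytosol, HSP70 works with J-domain proteins that deliver clients, exchange factors that reset it, small heat shock proteins that hold clients and HSP90 that finishes signalling proteins, while HSP60 and HSP10 form the folding chamber of mitochondria. The stress-induced genes among them are switched on by the transcription factor HSF1, which binds heat shock elements, repeats of the unit GAA in alternating orientation. Some members, such as Hspa8, are made at high levels in unstressed cells, whereas Hspa1b is the classical strongly induced gene.

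The promoters are shown here because the members differ in how exact letters of these elements are arranged. Units with a mismatch or another spacing were not searched in any promoter, so every pair or run below is of exact units only. RefSeq promoters (build GRCm38.p6, 250 bases before to 50 after a start site) matched 7 of the 10 members, and Hsp90aa1, Hsp90ab1 and Hspa8 had no entry. A pair of units was searched as GAANNTTC or TTCNNGAA, which covers both strands because each is its own reverse complement, and pairs may overlap by 1 unit in longer runs. At least 1 pair stood in a promoter of 6 of the 7 matched members, against 17% of all 27025 genes in the table, counting a gene if any of its promoters held a pair (15.1% of 32851 promoters). Dnajb1 was the member without a pair in either of its promoter windows, which says only that these letters are not in those windows. The 250 bases before the Hspa1b start site (chr17:34959239-34959488, minus strand) hold 1 pair, in capitals, from position -104 to -97 counted from the start site, and a CCAAT box on the opposite strand from -67 to -63.

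Hspa1b: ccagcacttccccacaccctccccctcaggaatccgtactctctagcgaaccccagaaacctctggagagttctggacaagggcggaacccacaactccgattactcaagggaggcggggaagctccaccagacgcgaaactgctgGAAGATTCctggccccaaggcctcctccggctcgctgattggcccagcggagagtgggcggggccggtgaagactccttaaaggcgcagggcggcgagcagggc

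Hspd1 and Hspe1 lie back to back, with start sites 216 bases apart on opposite strands for the second of the 2 Hspd1 starts, and the same run of 4 alternating units lies between them. That run, chr1:55088053-55088082 with its flanks, is printed below as read toward Hspe1. Runs of 4 units stood in 8 of all 32851 promoters (0.0244%), and these included the Hspe1 promoter and that of the second Hspd1 start. The upstream pairs of Hsph1 (chr5:149636351-149636380, minus strand) and Hspb1 (chr5:135887791-135887820 and chr5:135887811-135887840, plus strand) are set beside it for comparison, again with paired units in capitals.

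Hspe1 and Hspd1: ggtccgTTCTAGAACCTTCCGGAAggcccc

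Hsph1: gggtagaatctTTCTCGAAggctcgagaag

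Hspb1, distal pair: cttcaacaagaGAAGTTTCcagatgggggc

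Hspb1, proximal pair: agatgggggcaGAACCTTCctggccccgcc

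Runs of 3 units, which stood in a promoter of 0.662% of genes, were found for 3 members, Hspd1, Hspe1 and Hsph1. The Hsph1 run lay downstream of the first of its 2 annotated starts, from position 37 to 49, as did the pair of Bag3, from 43 to 50. CCAAT letters stood in a promoter of 41.1% of genes and of 4 of the 7 members. A match is a run of letters and was not measured as a binding site.

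**Figure D1:**
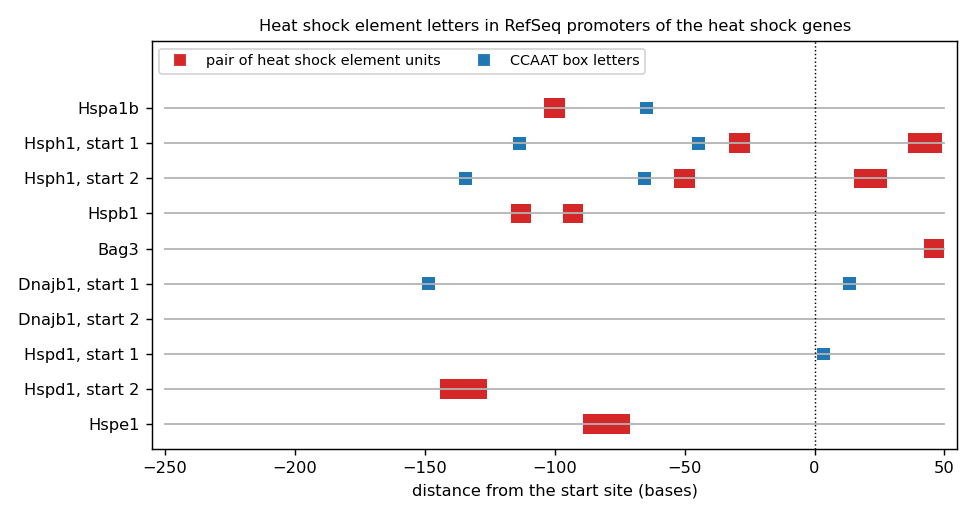
Position of paired heat shock element units (red) and CCAAT letters (blue) in RefSeq promoter windows, from 250 bases before to 50 after each start site (dotted line), 1 row per start. The runs of Hspe1 and of the second Hspd1 start are the widest, Hspa1b has 1 pair at -104 and Hspb1 has 2 separate pairs. The window of the first Hspd1 start and both Dnajb1 windows hold no pair.

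Among the heat shock genes, the largest difference between the pools was in Hspa1b, the inducible cytosolic HSP70. On the log2 scale its brightest probe set gave 8.999 for Yap+/+ and 10.04 for Yap+/-, which is 2.06-fold higher in Yap+/-. Hsph1, the HSP110 that resets HSP70, was 1.69-fold higher. Hspb1, the small heat shock protein HSP27 (HSP25 in mouse), was 1.46-fold lower. The remaining 6 members differed by 1.24-fold or less in either direction. A pool with fewer cells of a type and a pool with less RNA per cell cannot be told apart in these bulk samples.

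Counted by direction, 6 of the 9 members were higher in Yap+/- and 3 were lower, where 48.8% of all measured genes were higher and 49.6% lower. Of the members 1, Hspa1b, was at least 2-fold higher, beside 0.0968% of measured genes (9 of 9299), and 0 members were at least 2-fold lower, beside 0.226%. At 1.5-fold, 2 members, Hspa1b and Hsph1, were higher, beside 0.699% of measured genes, and 0 were lower, beside 0.645%. The median log2 difference of the 9 members was 0.14, beside 0.00 over all measured genes, and it became -0.054 over the 7 members that have a probe set without a suffix for shared targets (_s, _x or _a). The members and these thresholds were chosen with results of these arrays known, so the counts describe the list and support no claim about it.

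**Figure D2:**
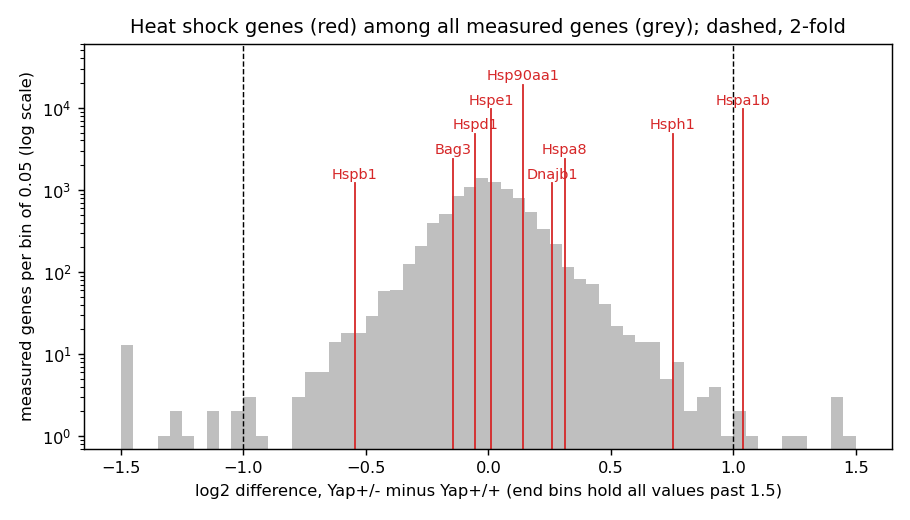
Log2 difference (Yap+/- minus Yap+/+) of the 9 members (red lines) over the distribution for all 9299 measured genes (grey bars, log-scaled counts per bin of 0.05), with dashed lines at 2-fold. Hspa1b lies just past the 2-fold line at 1.04, Hsph1 at 0.75 and Hspb1 at -0.55, while the other 6 members lie between -0.15 and 0.31.

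Hspa1b was read by 3 probe sets, all above the minimum. The Yap+/+ and Yap+/- arrays gave 8.999 and 10.04 on the brightest, 7.66 and 8.61 on the second, and 7.08 and 8.10 on the third. All 3 were higher in Yap+/-, by log2 differences of 1.04, 0.95 and 1.01, a range of 0.093 that is smaller than the usual disagreement between probe sets. The 3 share the accession M12573 as their target in the annotation, so they reread the same transcript rather than check it independently. From the highest difference down, Hspa1b ranked 8 of the 9299 measured genes. Its value stood close to the threshold, and adding 64 on the linear scale brought it to 0.95.

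Hspa1a, a near-identical neighbouring copy of Hspa1b, shares almost the same promoter, with 3 mismatches in 250 upstream bases. The probe set annotated to Hspa1a read 3.72 in Yap+/+ and 3.69 in Yap+/-, under the median of all probe set values, 4.92, so expression was not established for it. Which of the copies gave the Hspa1b signal cannot be told apart with these probe sets. Hspa1a was named here after its values were seen.

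Hsph1 had 2 probe sets, both with the _a suffix that marks probes shared by transcripts of a gene. The brighter read 8.42 in Yap+/+ and 9.18 in Yap+/-, a log2 difference of 0.75. The dimmer read 5.52 and 6.15, with a mean under the minimum, and its difference of 0.63 had the same direction. By its brighter probe set Hsph1 ranked 27 among the 9299 measured genes from the highest difference down.

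Hspa8, the constitutive HSC70 that carries out much of the routine HSP70 work, gave a divided reading over its 4 probe sets. The brightest went from 12.19 in Yap+/+ to 12.50 in Yap+/-, 1.24-fold higher. The next ones went from 11.82 to 12.02 and from 10.97 to 11.45, again higher in Yap+/-. The fourth, the only one of this gene without a suffix, went from 6.89 in Yap+/+ to 6.71 in Yap+/- and so was lower. The 4 log2 differences ran from -0.18 to 0.48, a range of 0.66 that was the widest of any member, so the size of the Hspa8 difference is uncertain and its direction depends on the probe set.

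Dnajb1, the HSP40 that hands clients to HSP70, was higher on both of its probe sets, neither of which carries a suffix. The brighter read 8.72 in Yap+/+ and 8.98 in Yap+/-, a log2 difference of 0.26. The second read 7.82 and 7.91, a difference of 0.093 that is within the disagreement between probe sets.

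Bag3, an exchange factor that couples HSP70 and small heat shock proteins to autophagy, had 1 probe set. It read 8.47 in Yap+/+ and 8.33 in Yap+/-, a log2 difference of -0.15 that is within the disagreement between probe sets. A difference at least that large in either direction was seen in 33.5% of measured genes.

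Hspb1 was lower in Yap+/- on both of its probe sets. The brighter read 7.62 in Yap+/+ and 7.07 in Yap+/-, a log2 difference of -0.55, and the second read 7.18 and 6.69, a difference of -0.49. Both carry a suffix, so Hspb1 had no reading from a probe set without one. Counted from the lowest difference up, Hspb1 ranked 74 of 9299, and 1.63% of measured genes differed at least as far in either direction. With 64 added on the linear scale its difference was -0.39.

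Hspb1 is also abundant in smooth muscle, and most but not all measured markers of smooth muscle and mesenchyme were lower in the same pool. Of 5 measured markers out of 6 with a probe set, 4 were lower in Yap+/-, beside 49.6% of all measured genes. Among the lower ones, Acta2, smooth muscle actin, read 9.05 in Yap+/+ and 7.92 in Yap+/-. The 1 measured marker that was not lower, Pdgfrb, was higher by 0.31. The summed level of the 6 markers was 10.38 in Yap+/+ and 9.88 in Yap+/- (log2 of the summed linear values). Of 5 bile duct markers with a probe set, 1 was measured, the mucin Muc1, which read 7.19 in Yap+/+ and 5.51 in Yap+/-. Under the minimum, the duct keratin Krt19 read 6.73 and 4.83, Krt7 and Epcam differed by -0.15 and -0.11, and Sox9 was higher by 0.26. The summed level of the 5 bile duct markers, Muc1 included, was 8.53 in Yap+/+ and 7.60 in Yap+/-. The part of these cell types in the Hspb1 result was not tested.

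Hsp90aa1, the stress-inducible cytosolic HSP90 that matures kinases and steroid receptors, had 3 measured probe sets and 2 under the minimum. The brightest read 11.44 in Yap+/+ and 11.58 in Yap+/-, a log2 difference of 0.14. The second read 9.05 and 9.38, a difference of 0.33, and the third, without a suffix, read 8.78 and 8.74, a difference of -0.038. The probe sets under the minimum read 4.90 and 4.94, and 3.16 and 3.37. As with Hspa8, the suffixed probe sets were higher in Yap+/- and the measured one without a suffix was not.

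The mitochondrial folding chamber hardly differed between the pools. Hspd1, which encodes HSP60, had 1 probe set, at 12.39 in Yap+/+ and 12.34 in Yap+/-, a log2 difference of -0.054. Its partner Hspe1, which encodes the HSP10 lid, read 12.28 and 12.29 on its brighter probe set, a difference of 0.012, and 10.13 and 10.07 on the other, a difference of -0.059. All 3 readings are within the disagreement between probe sets. These are the genes that share the 4-unit run printed above.

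**Figure D3:**
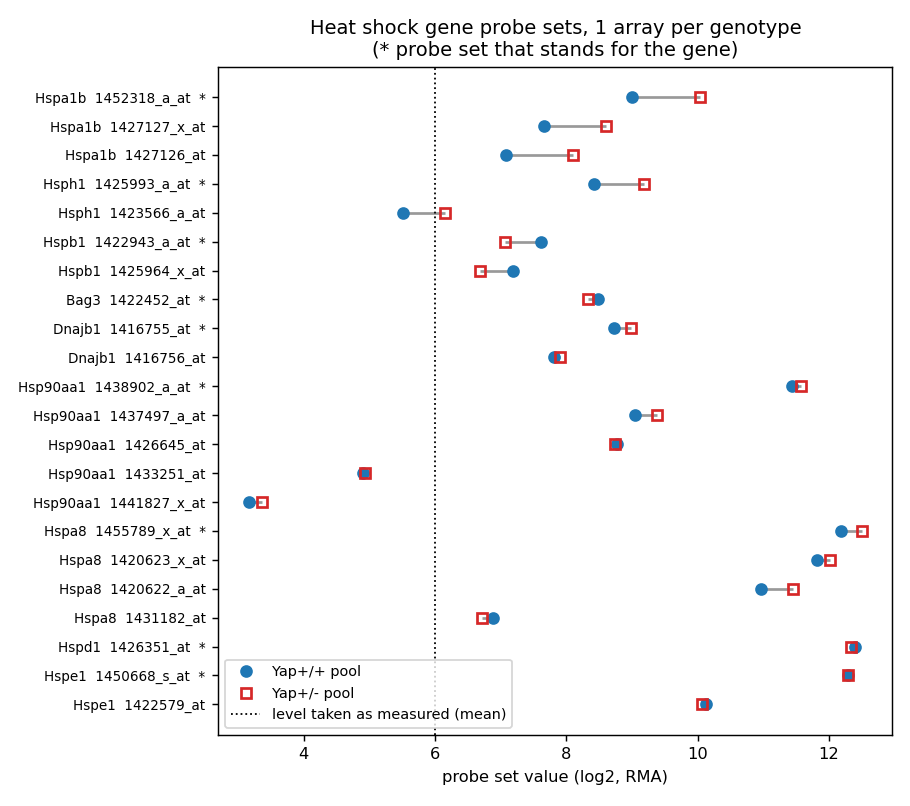
Values of all 22 probe sets on the Yap+/+ array (filled circles) and the Yap+/- array (open squares), on the log2 scale, with 1 array per genotype and no error bars for that reason. The 3 Hspa1b probe sets are separated by about the same distance, both Hspb1 probe sets run the other way, and those of Hspd1 and Hspe1 nearly coincide.

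Within the group, the counts and medians differed between probe sets with and without a suffix. Suffixes _s, _x and _a mark probe sets whose probes can bind more than 1 transcript, within a gene for _a and across genes for _s and _x. Of 11 measured suffixed probe sets of the members, 9 were higher in Yap+/- and 2 lower, with a median log2 difference of 0.31. Of 8 measured probe sets without a suffix, 3 went up in Yap+/- and 5 went down, and their median was -0.046. The 11 probe sets came from 6 genes and the 8 from 7 genes, so both counts include repeat readings of the same gene. Over all genes the medians of these classes were 0.00 for 4625 suffixed probe sets and -0.0063 for 9812 without a suffix. Of the 4625, 2285 were higher and 2269 lower, and of the 9812, 4636 were higher and 5001 lower. Several members fall in only 1 class, since Hsph1 and Hspb1 had suffixed probe sets alone and Bag3, Dnajb1 and Hspd1 had none. The classes thus also differ in their genes, and the part of the suffix was not tested. Among the 4 members with both kinds, the probe sets of Hspa1b had the same direction in each class, and Hspa8, Hsp90aa1 and Hspe1 had measured probe sets in both directions.

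**Figure D4:**
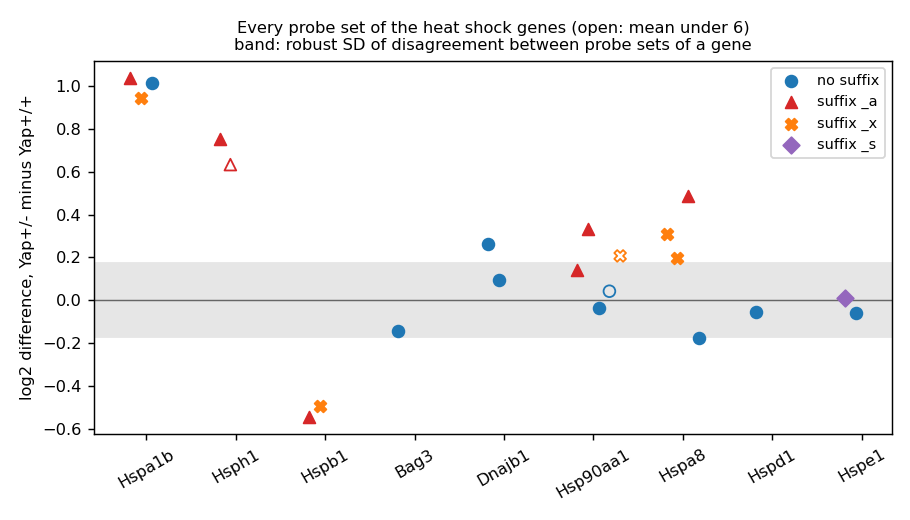
Log2 difference of each probe set by gene, with the symbol showing its suffix, open symbols for probe sets with a mean under 6, and a grey band at the robust SD of disagreement between probe sets of a gene (0.17). The 3 Hspa1b probe sets, with _a, _x and no suffix, lie between 0.95 and 1.04, whereas the Hspa8 probe sets run from -0.18 to 0.48.

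The rest of the chaperone network was divided between the directions. Over 8 lists of related genes, 70 genes other than the members were measured. Of these, 31 were higher in Yap+/- and 39 lower, beside 48.8% and 49.6% of all measured genes. The median log2 difference of the 70 was -0.011. By the brightest probe set of each gene, 0 of the 70 differed by 1.5-fold in either direction, a count near the background shares of 0.699% and 0.645%. Dimmer measured probe sets did pass 1.5-fold for Dnajb6, at -0.95, and for Fnip1, at 0.73. By brightest probe set, differences ran from -0.39 to 0.53. On that measure 11 of the 70 (15.7%) reached the disagreement between probe sets in either direction, as did 26.1% of all measured genes. The 70 include Sil1 of the endoplasmic reticulum, and without it 30 were higher and 39 lower. No other gene of the 70 was left out for its compartment. The genes named from each list are all members past 1.5-fold or otherwise the 2 that differed most.

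Among HSF factors and their regulators, 3 genes were measured and all 3 were lower, beside 49.6% of all measured genes, with a median of -0.081. Hsf2, a relative of HSF1, read 6.24 in Yap+/+ and 6.01 in Yap+/-, although its other probe set, under the minimum, was higher by 0.31. Hsbp1, a small protein that binds HSF1, differed by -0.081. Hsf1 had no probe set with its symbol alone and was not analysed here.

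Other HSP70 and HSP110 genes had 1 of 5 measured members higher and 4 lower, beside 48.8% and 49.6% of all measured genes. The list median was -0.059. Hspa14, a ribosome-associated HSP70, read 7.49 in Yap+/+ and 7.10 in Yap+/-, and Hspa13 differed by -0.096. J-domain proteins, the partners that set HSP70 to work, had 6 of 16 higher and 10 lower, beside the same shares of all measured genes. The list median was -0.019. Dnajc9, a histone co-chaperone, differed by -0.20 and Dnajb14 by 0.17, and a second measured probe set of Dnajb14 differed by -0.059.

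Small heat shock proteins other than Hspb1 had 3 measured members, 2 higher and 1 lower, beside 48.8% and 49.6% of all measured genes. The list median was 0.053. Cryab, alpha-B crystallin, differed by 0.076 and Hspb6 by 0.053, both within the disagreement between probe sets. The other Cryab probe sets, under the minimum, differed by -0.26 and -0.10. BAG and other exchange factors had 4 of 8 higher and 4 lower, beside the same shares of all measured genes. The list median was -0.0085. Grpel2, an exchange factor of mitochondrial HSP70, read 8.95 in Yap+/+ and 9.33 in Yap+/- and was higher by 0.29 on its second probe set, and Sil1, which serves the HSP70 of the endoplasmic reticulum, differed by 0.17.

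HSP90 co-chaperones had 7 of 13 measured members higher and 6 lower, beside 48.8% and 49.6% of all measured genes. The list median was 0.024. Fkbp5, a co-chaperone of steroid receptors that glucocorticoids induce, read 9.09 in Yap+/+ and 9.62 in Yap+/-. Its difference of 0.53 was the highest in the network by brightest probe set. The other Fkbp5 probe sets were under the minimum and differed by -0.075 and -0.063. Chordc1, an HSP90 partner, was higher by 0.28. The cytosolic chaperonin TRiC and its feeder prefoldin had 10 of 14 higher and 4 lower, beside the same shares of all measured genes. The median of this list was 0.035. Pfdn4 and Pfdn1, both prefoldin subunits, led this list at 0.35 and 0.25, but with probe sets that carry no suffix 10 genes were left, 5 higher and 5 lower, and with the mean of all probe sets 7 were higher and 6 lower.

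Mitochondrial chaperones and proteases had 2 of 13 measured members higher and 11 lower, beside 49.6% of all measured genes lower, with a median of -0.058. With the mean of all probe sets 4 were higher and 9 lower, and with probe sets without a suffix 1 was higher and 8 lower. Besides Grpel2, the largest difference was that of Clpx, the unfoldase of a matrix protease, which read 10.99 in Yap+/+ and 10.83 in Yap+/-. That Clpx difference is within the disagreement between probe sets, whereas its second measured probe set differed by -0.37, past it. Hspd1 and the dimmer Hspe1 probe set were also lower, while the brighter Hspe1 probe set was higher, by 0.0115. Genes of 2 lists, such as Grpel2 and Hspa9, count in both.

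Chaperones of the endoplasmic reticulum, which answer to a separate stress pathway, were compared because they are the nearest functional relatives. All 12 measured genes were higher in Yap+/- by their brightest probe set, beside 48.8% of all measured genes, with a median of 0.14 and a range from 0.018 to 0.28. With the mean of all probe sets 11 were higher and 1 lower, and with probe sets without a suffix 8 were higher and 1 lower. The highest were Sdf2l1, a co-chaperone, at 0.28 and Dnajb9, a J-domain protein, at 0.26. These 2 and Hyou1, at 0.24, were past the disagreement between probe sets (0.17), and the other genes lay within it. Dimmer measured probe sets ran both ways, from -0.28 for Canx to 0.30 for Hsp90b1. By brightest probe set, the median of the 12 genes was nearly that of the heat shock genes, 0.14. Differences of the 12 lay much closer together than those of the heat shock genes, which ran from -0.55 to 1.04. Over probe sets without a suffix the medians were apart, 0.14 for these chaperones and -0.054 for the heat shock genes. The difference between these lists was not tested.

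Cirbp, an RNA-binding protein that is induced by mild cold, was the one gene measured on its list. Its only probe set went from 6.92 in Yap+/+ to 6.24 in Yap+/-, a log2 difference of -0.68, which is past 1.5-fold. With 64 added on the linear scale the difference was -0.41 and no longer past 1.5-fold. The other gene of that list, Rbm3, had no probe set with its symbol alone and was not analysed here. Whether Cirbp varies with Hspa1b and Hsph1 was not tested.

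**Figure D5:**
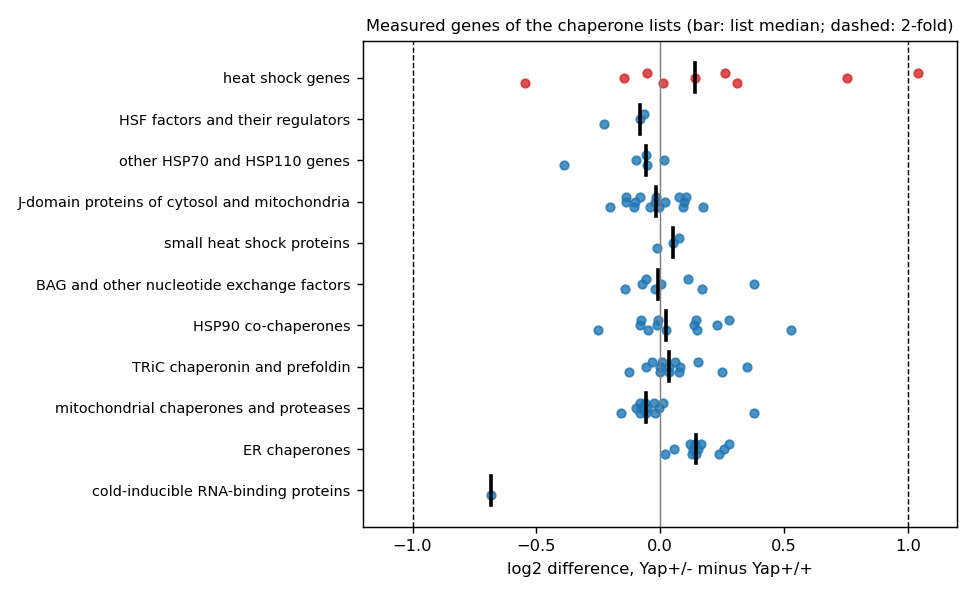
Log2 difference (Yap+/- minus Yap+/+) of each measured gene in the heat shock group (red) and 10 related lists (blue), with a bar at each list's median and dashed lines at 2-fold. Each gene is drawn by its brightest probe set. The heat shock genes are spread from -0.55 to 1.04, the network lists stay within -0.39 and 0.53, and the 12 chaperones of the endoplasmic reticulum lie above 0.

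Some features of the whole pools run alongside these values. Yap1 differed by -0.15 log2 on its brighter probe set, within the disagreement between probe sets, and by -0.24 on the other, under the minimum, so these values do not check the genotype labels. Hepatocyte markers matched the labelled tissue, with Alb at 15.09 on both arrays and a list median of 0.00. That Alb value is near the highest on the arrays, 15.15. Differences over the hepatocyte list ran from -0.22, for Tat, to 0.038, for Ttr. All 8 Kupffer cell and macrophage markers were higher in Yap+/-, beside 48.8% of all measured genes. Their summed level was 12.90 in Yap+/+ and 13.25 in Yap+/-, and Adgre1 read 7.92 and 8.35. Of 6 sinusoidal endothelial markers, 4 were higher, beside the same share, with a summed level of 12.03 and 12.26 and Stab2 at 9.24 and 9.39. The erythroid list had 1 measured member of 2 with a probe set, and its summed level was 7.66 and 7.76. Control transcripts had a larger excess of signal from the 3-prime over the 5-prime end in Yap+/-, by 0.20 to 0.22 log2 over 3 transcripts. The part of these features in the heat shock results was not tested.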

How the data were processed

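The authors deposited 1 log2 value per probe set and array for 45101 probe sets. RMA and Partek 6.5 are named in the submitters' processing notes, with no settings. RMA equalises the distributions of the arrays, and sorted columns differed by at most 0.047, so an overall shift between pools would be removed. The platform annotation gave probe sets their names: 34945 had 1 symbol, 932 several and 9160 none, and 64 were controls. The brightest probe set by mean stood for a gene. Differences are Yap+/- minus Yap+/+ on the log2 scale, without a test.

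The members, gene lists and thresholds were chosen with earlier results of these data known. Named genes are all members, and of each related list those past 1.5-fold or otherwise the 2 that differed most, plus 1 defining gene for most cell types. Likeness of pattern over 2 arrays was not computed. Alternatives were the filter (none, or a mean of 7), the mean of all probe sets, probe sets without a suffix, median centring, removal of a lowess trend, 64 added on the linear scale, and 1.5-fold or 3-fold thresholds. Counting and motif search were tested on simulated data. Tables were handled in pandas 2.3.3 and numpy 2.4.6 under Python 3.11.15, the trend was taken with statsmodels 0.14.6 and figures were drawn with matplotlib 3.10.9.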

Additional observations from a re-analysis of the deposited data

How the results depend on the processing

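Under filters, centring and a lowess trend, the counts and the median of the heat shock genes kept their values or moved by less than the disagreement between probe sets (0.17). With probe sets without a suffix, 7 members were left, 2 higher and 5 lower, with a median of -0.054, Hspa8 at -0.18 and Hsp90aa1 at -0.038. Hsph1 and Hspb1 drop out there by construction. With the mean of all probe sets, Hspe1 changed sign to -0.024. The number of members at least 2-fold higher, 1 as reported, was 0 with 64 added on the linear scale, 2 at 1.5-fold and 0 at 3-fold. Over all measured genes, 9 were higher and 21 lower at 2-fold, against 37 lower without the filter, 4 and 13 with 64 added, 65 and 60 at 1.5-fold, and 0 and 11 at 3-fold. Cirbp moved from -0.68 to -0.41 with 64 added. Leaving Sil1 out of the network, chosen after seeing the data, moved its median from -0.0113 to -0.0115. No paired analysis was possible because each genotype has 1 array. Signal over background is unknown here, and the number of arrays limits all differences.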
